A study of Bos taurus with 18 samples.

Results

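Bovine satellite cells that had spent 72 h in a serum-free, DMEM-based differentiation medium were compared with satellite cells that had spent 72 h in a differentiation medium with 2% fetal bovine serum (FBS). The comparison used all 14637 genes that passed an expression filter, of 27607 gene identifiers in the count table, and 6 of the 18 libraries of the series. The DMEM group (3 libraries, replicates A, B and C, 0% FBS) held cells grown beforehand in a serum-free growth medium, called SFGM. The DM group (3 libraries, 2% FBS) held cells grown beforehand in a growth medium with 20% FBS, called GM. All cells were labelled as satellite cells of the Belgian Blue breed, were grown on collagen-coated flasks before differentiation, and are called biological triplicates, with no word on what the replicate letters stand for. The p-values set differences against the spread between libraries of the same medium, estimated over all 18 libraries. What that spread covers beyond separate cultures is not known. The other 12 libraries served as reference points: GM and SFGM at 0 h, and at 72 h the serum-free base medium without the differentiation formulation (SFB) and SFDM, the serum-free differentiation medium that has DMEM/F-12 as its base. DMEM and DM differed in serum, in the formulation of the medium and in the growth medium used before, and these cannot be told apart. The base of DM is not given in the sources used here.

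Satellite cells are the resident stem cells of skeletal muscle. In culture they proliferate as myoblasts, and when growth factors are withdrawn they leave the cell cycle, express muscle-specific transcription factors, fuse into multinucleated myotubes and build sarcomeres and the calcium-handling and energy systems of muscle fibres. Lowering the serum in the medium is the usual trigger, and the series asked whether a defined medium can bring cells to the differentiated state without serum. The comparison of both end points asks how far apart the cells were once each protocol had run its course. No gene names could be attached to the identifiers of the table with the reference used here. Genes are therefore grouped by the media in which they moved, and 4 identifiers are given in full. The labelled cell type was for the same reason not checked against marker genes.

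The 6 libraries held 22494116 to 28069386 counts, and each had between 16647 and 17061 identifiers with at least 1 count. Each DMEM library was 0.89 to 1.02 root mean square log2 units away from each DM library, and libraries of the same group were 0.313 to 0.475 apart. No library of one group lay nearer to the other group than to its own. The median standard deviation of log2 CPM (counts scaled to a common library total) between replicates was 0.171 in DMEM and 0.171 in DM. In bulk RNA, fewer cells of a type and less RNA per cell cannot be told apart.

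At 72 h, 3655 genes were higher in DMEM than in DM and 3588 were lower, which together is 49.5% of the genes tested (edgeR quasi-likelihood test, Benjamini-Hochberg adjusted p under 0.05). Of the 7243 called genes, 3194 differed by less than 1.5-fold, and the median size among the called genes was 0.65 on the log2 scale. At least 2-fold differences were found for 1158 genes that were higher in DMEM (7.91% of the genes tested) and 1043 that were lower (7.13%). A 4-fold difference was reached by 423 higher and 304 lower genes, and a 16-fold difference by 95 higher and 44 lower genes. The tail was thus longer on the side of DMEM, and the median over all genes was -0.01. With libraries scaled by their totals alone, 58.7% of the called genes were higher in DMEM, and with RLE scaling 47.8%, against 50.5% with the scaling used here.

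**Figure D1:**
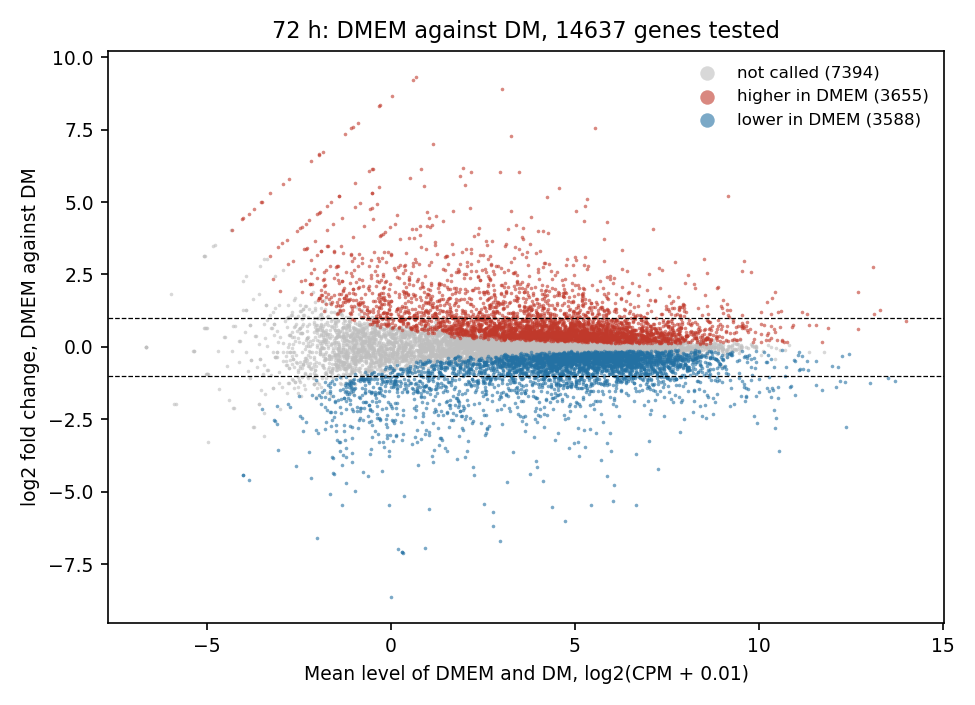
Each point is 1 of the 14637 genes tested, with its mean level over DMEM and DM on the horizontal axis (log2 of CPM plus 0.01) and its log2 fold change, DMEM against DM, on the vertical axis. Red points are the 3655 genes higher and blue points the 3588 genes lower in DMEM by the edgeR test, grey points were not called, and the dashed lines mark a 2-fold difference.

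All 3 DMEM libraries lay above all 3 DM libraries in CPM for 3840 genes (26.2%), and all 3 lay below for 3693 (25.2%). Of the genes with such a separation 6763 were also called by the test. For the other 480 called genes the range of the DMEM libraries overlapped that of the DM libraries.

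The difference was spread over the whole range of levels. Genes were split into 4 bins of near-equal size by their mean log2 CPM over all 18 libraries, which is not corrected for gene length. In the lowest bin 786 genes were higher and 707 lower in DMEM, out of 3660, and in the highest bin 984 were higher and 1172 lower, out of 3659. The share of genes called went from 40.8% in the lowest bin through 47.0% and 51.3% to 58.9% in the highest, beside the 49.5% of all genes. The size went the other way, with a median absolute log2 difference of 0.65 in the lowest bin and 0.28 in the highest. Differences of at least 2-fold numbered 573 higher and 537 lower in the lowest bin, and 143 and 146 in the highest.

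Measured as the part of a library that would have to be reassigned to other genes to turn one library into the other, DMEM and DM differed by 19.1% to 22.2% of the counts. Pairs of replicates within these groups differed by 2.90% to 8.76%. The same measure gave a mean of 20.4% between DMEM and DM, 16.7% between DMEM and SFDM, 16.2% between SFDM and DM, and 11.9% between SFGM and GM at 0 h. The 10 identifiers with the largest difference carried 20.9% of the shift and the 100 with the largest difference 46.7%. Of those 10, 5 were higher in DMEM, with 7.43% of the counts there and 2.68% in DM, and 5 were lower, with 2.53% against 5.97%. The 100 identifiers with the most counts took up 27.0% ± 0.772 of the counts in DMEM and 27.8% ± 0.923 in DM (SD, n = 3, exact two-sided permutation p = 0.4, where 0.1 is the smallest that 3 against 3 libraries allow). Of these 100, 70 were the same identifiers in both media.

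The 4 identifiers described in full are the 2 most raised and the 2 most lowered ones in DMEM against DM, out of 5513 that passed the test, reached a mean of 5 CPM in the higher group and had no overlap between the libraries. They were chosen for this contrast, so its values describe them. Tests of DMEM or DM against another medium reuse the libraries that chose them, so those p-values are descriptions too. What the reference points add is where each stood in the other media.

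ENSBTAG00000020676 had 550, 409 and 312 counts in DMEM replicates A, B and C, and 0, 1 and 1 in DM. That is 16.2 ± 3.29 CPM in DMEM (SD, n = 3), and a ratio of 564 with a 95% exact binomial interval of 156 to 4660, which covers counting error only (edgeR adjusted p = 1.09e-11). DMEM was the highest of all 6 media: SFDM held 2.72 ± 0.695 CPM, SFB 1.07 ± 0.206, SFGM 0.561 ± 0.165 and GM 0.224 ± 0.0814. The next medium, SFDM, was 6.02-fold below DMEM (edgeR adjusted p = 2.69e-08). Even its lowest DMEM library, at 13.0 CPM, was above the highest SFDM library, at 3.35 CPM.

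ENSBTAG00000053649 had a mean of 23.5 to 93.5 CPM in every medium except DM. It stood at 113, 93.1 and 74.6 CPM in the DMEM libraries and at 0.485, 0.462 and 0.537 CPM in the DM libraries, a 187-fold difference (log2 7.55, SE 0.277, edgeR adjusted p = 9.98e-13). GM cells, from which the DM cultures came, had 23.5 ± 4.18 CPM, so the level in DM was 46.9-fold below its own starting point (edgeR adjusted p = 1.42e-11). SFGM stood at 51.2 ± 0.277 CPM, SFB at 44.9 ± 11.3 and SFDM at 43.2 ± 7.37. The range of the SFB libraries, 37.9 to 58.0 CPM, overlapped that of SFDM and took in all SFGM libraries. From SFGM to DMEM it rose 1.83-fold (edgeR adjusted p = 0.000287).

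ENSBTAG00000012034 had a mean above 1 CPM in DM and in no other medium of the series. Its counts were 368, 274 and 422 in DM, which is 15.5 ± 3.15 CPM, and 4, 2 and 5 in DMEM, which is 0.143 ± 0.0648 CPM, a 105-fold difference (log2 -6.72, SE 0.306, edgeR adjusted p = 1.36e-11). The means of the other 4 media lay between 0.106 and 0.348 CPM. Between DMEM and SFDM it did not pass the test (log2 0.16, SE 0.657, edgeR adjusted p = 0.863), at 11 and 8 counts per group.

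ENSBTAG00000005604 stood highest in DM and second in SFDM. It had 319, 255 and 349 counts in DM, or 13.4 ± 1.97 CPM, and 3, 5 and 6 in DMEM, or 0.185 ± 0.0724 CPM, which is 72.2-fold lower (log2 -6.17, SE 0.333, edgeR adjusted p = 1.26e-10). SFDM held 1.73 ± 0.381 CPM, 9.18-fold above DMEM (edgeR adjusted p = 6.74e-06). SFB held 8 counts over its 3 libraries, and GM and SFGM held 2 each.

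**Figure D2:**
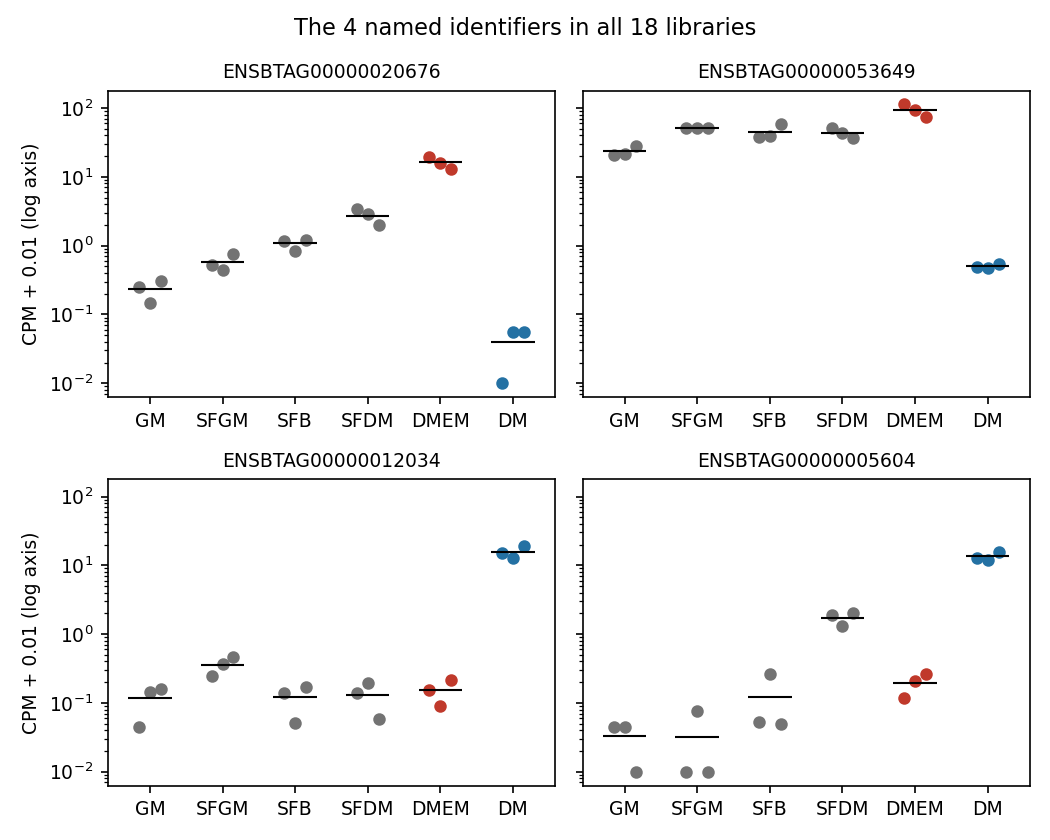
CPM plus 0.01 on a log axis for the 4 identifiers in each of the 18 libraries, by medium. Points are libraries (DMEM red, DM blue, the other media grey) and lines are group means. The DM libraries of ENSBTAG00000053649 lie below those of every other medium, and those of ENSBTAG00000012034 lie above.

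Few identifiers were switched fully between the media. With a mean below 1 CPM in one group and at least 10 CPM in the other, 10 identifiers were on in DMEM and off in DM, and 7 were on in DM and off in DMEM. Some of the identifiers that were on in DMEM were on in other media too: 6 of the 10 had at least 10 CPM in SFGM, 5 in SFB and 5 in SFDM, and 1 in GM. Their median levels were 17.3 CPM in DMEM, 13.6 in SFDM, 11.2 in SFB, 10.9 in SFGM, 4.60 in GM and 0.599 in DM. For 8 of the 10 the level at 0 h was already higher in SFGM than in GM by the edgeR test, and for 1 it was lower. Of the 7 identifiers that were on in DM, 2 were lower in SFGM than in GM at 0 h and 1 was higher. Over all genes tested 19.6% were higher and 19.4% lower in SFGM. The 7 identifiers that were on in DM had 0 members at 10 CPM in any other medium, with medians of 15.5 CPM in DM, 0.567 in SFDM, 0.263 in DMEM, 0.168 in GM, 0.150 in SFB and 0.146 in SFGM. Levels in DMEM and DM chose these identifiers, and the other media did not.

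Identifiers with no count at all in one of the groups were rare. For 10 there was no count in any DM library and at least 10 counts in every DMEM library, with 41 to 249 counts over the DMEM group. Set against a floor of 3 counts over the DM group, these were at least 12.3-fold to at least 73.5-fold higher in DMEM. Of the 10, 3 also had no count in GM, and each had at least 1 count in SFGM. In the other direction 1 identifier had no count in DMEM and 136 in DM, at least 51.0-fold lower. The table held 0 identifiers with no count in all 6 GM and DM libraries and at least 5 counts in each of the 12 serum-free libraries, and 0 with the opposite pattern.

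Whether genes that were apart at 72 h had been apart before differentiation was read from SFGM against GM at 0 h, a comparison that shares no library with DMEM against DM. At 0 h, 2873 genes were higher and 2845 lower in SFGM, or 39.1% of the genes tested. Of the 3655 genes higher in DMEM, 1284 (35.1%) had been higher in SFGM and 611 (16.7%) lower, beside 19.6% and 19.4% over all genes. Of the 3588 genes lower in DMEM, 1033 (28.8%) had been lower in SFGM and 656 (18.3%) higher. In all, 2317 genes were called at both times in the same direction and 1267 in opposite directions. A further 3659 genes, 50.5% of the calls at 72 h, were not called at 0 h. Of the 5718 genes called at 0 h, 2134 (37.3%) were not called at 72 h.

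Across the 14637 genes the log2 difference at 72 h correlated with that at 0 h (Pearson's r = 0.274, Spearman's rho = 0.174). This is across genes, which are not independent replicates, and both sets of values share the filter and the scaling. The genes at least 2-fold higher in SFGM at 0 h, 1077 in number (7.36% of the genes tested), had a median difference of 1.64 at 0 h and of 0.49 between DMEM and DM at 72 h. Of these, 538 (50.0%) were higher and 229 (21.3%) lower in DMEM, beside 25.0% and 24.5% of all genes. The 561 genes at least 2-fold lower in SFGM (3.83%) had a median of -1.59 at 0 h and of -0.44 at 72 h, with 247 (44.0%) lower and 103 (18.4%) higher in DMEM. The lists were chosen on the 0 h libraries, which favours large values there, so the smaller medians at 72 h alone do not show that a difference closed.

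**Figure D3:**
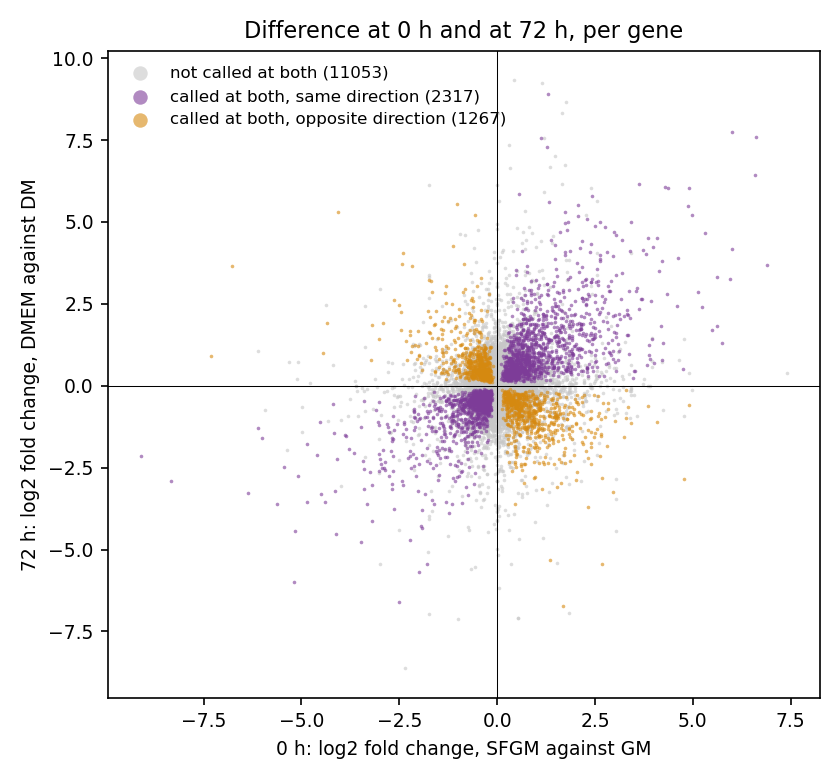
Each point is a gene, with its log2 fold change at 0 h, SFGM against GM, on the horizontal axis and at 72 h, DMEM against DM, on the vertical axis. Purple points were called at both times in the same direction (2317 genes), orange points in opposite directions (1267), and grey points were not called at both.

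Among the strongest differences, the 0 h values were as follows. Of the 1158 genes at least 2-fold higher in DMEM, 577 (49.8%) had been higher in SFGM than in GM and 145 (12.5%) lower, with a median 0 h difference of 0.63. Of the 1043 genes at least 2-fold lower in DMEM, 277 (26.6%) had been lower and 238 (22.8%) higher, with a median of -0.02. Over all genes tested the median at 0 h was -0.01. Whether these lists differed from each other in their 0 h values was not tested.

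The same genes were placed in the remaining media by their log2 CPM minus the mean in DM. The DMEM and DM values chose the genes and describe them only. For the 1158 genes higher in DMEM, DM was the lowest of the 6 media: the median gene stood 0.42 ± 0.034 above DM in GM, 1.01 ± 0.011 in SFGM, 1.10 ± 0.019 in SFDM, 1.13 ± 0.063 in SFB and 1.60 ± 0.032 in DMEM (SD over 3 libraries of the per-library median). SFDM was above DM for 1033 of these genes and SFB for 1040. For the 1043 genes lower in DMEM, DM was the highest: the median gene stood 0.82 ± 0.027 below DM in SFDM, at -1.42 ± 0.035 in SFB, at -1.45 ± 0.093 in DMEM, at -1.95 ± 0.041 in GM and at -2.07 ± 0.027 in SFGM. SFB and DMEM overlapped in these per-library medians, and SFDM lay between them and DM. A choice made on low or high DM values by itself pushes the other media to the opposite side of DM. The required 2-fold distance of DMEM from DM by itself favours other media lying nearer to DM than DMEM does.

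**Figure D4:**
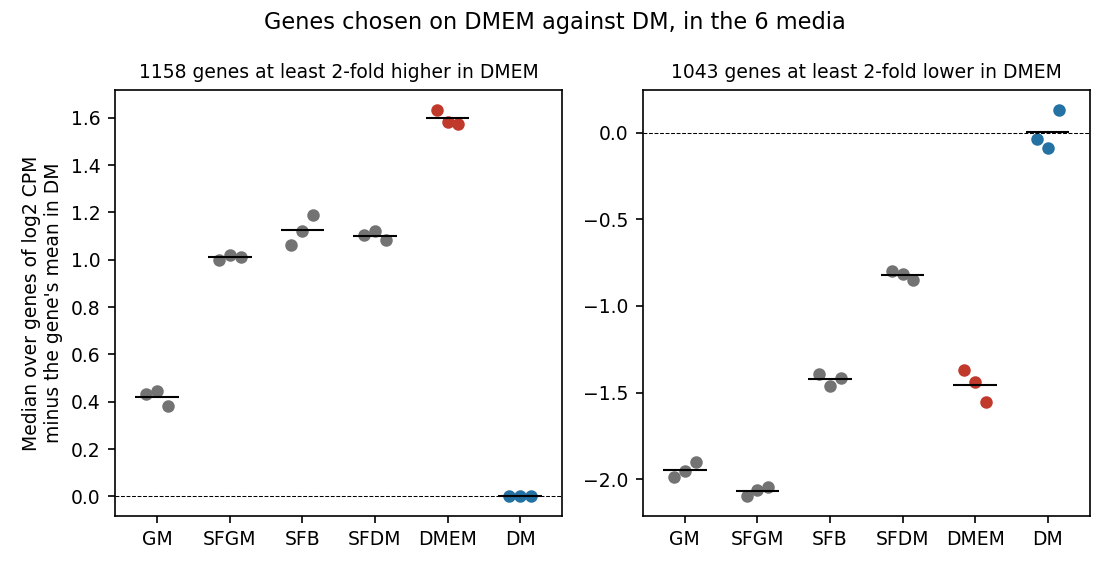
Median over genes of log2 CPM minus each gene's mean in DM, per library and medium, for the 1158 genes at least 2-fold higher in DMEM (left) and the 1043 at least 2-fold lower (right). Points are libraries and lines are group means. DM sits at the bottom on the left and at the top on the right, and SFDM lies closer to DM than DMEM does in both. The choice of genes on DMEM against DM by itself favours both of these placements.

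The changes over the 72 h of each protocol are given for the same genes as descriptions, since they use the DMEM and DM libraries that chose them. Of the 1158 higher genes, 646 (55.8%) rose from SFGM to DMEM and 547 (47.2%) fell from GM to DM. Over all genes tested 32.1% rose from SFGM to DMEM and 35.6% fell from GM to DM. Both changed in opposite directions, up in DMEM and down in DM, for 167. Both rose for 261, and both fell for 233. Of the 1043 lower genes, 800 (76.7%) rose from GM to DM, beside 34.2% of all genes. Of these 800, 483 also rose from SFGM to DMEM, 222 were not called there and 95 fell. Genes that rose in both protocols were the most frequent pattern among the lower genes, at 46.3%. The shares of these joint patterns over all genes tested were not computed, so their counts in both lists are descriptions only. The change over 72 h differed between both protocols for 695 of the 1158 higher and 707 of the 1043 lower genes in those directions. That contrast called the change higher in DMEM for 20.3% of all genes tested and lower for 19.8%, together 40.1%.

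Gene classes defined by contrasts that hold no DMEM or DM library were then followed in this comparison. These libraries entered the classes only through the filter, the scaling and the shared spread of the fit over all 18 libraries. The 1919 genes that rose at least 2-fold from SFGM to SFDM stand for the response to serum-free differentiation. In DMEM against DM, 906 of them (47.2%) were lower and 447 (23.3%) higher, beside 24.5% and 25.0% of all genes, and their median log2 difference was -0.37. They took up 15.4%, 15.3% and 15.6% of the counts in the DMEM libraries and 26.2%, 26.0% and 27.6% in the DM libraries. No DMEM library came near a DM library in this share (exact two-sided permutation p = 0.1, the smallest possible). At 0 h the same genes had held 4.91% ± 0.0168 of the counts in GM and 5.14% ± 0.0336 in SFGM, and in the SFDM libraries, on which they were chosen, they held 25.0% ± 0.179. In SFB, which did not enter the choice, they held 16.5%, 15.9% and 14.7%. The range of the SFB libraries thus took in all DMEM libraries.

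Among members of this class with more counts, a larger number were lower in DMEM, and this trend was not tested. The class was split into 4 bins by mean level over all 18 libraries. In the lowest bin, 137 of 480 members were lower and 117 were higher (median -0.12). The following bins had medians of -0.22 and -0.43. In the highest bin, 329 of 480 were lower and 74 were higher (median -0.58). The members of this bin took up 14.1% ± 0.153 of the counts in DMEM and 24.7% ± 0.727 in DM. Lower calls also became more frequent with level among all genes tested. In the 4 bins of all genes, whose limits differ, they went from 19.3% in the lowest to 32.0% in the highest. Higher calls went from 21.5% to 26.9% there. The 10 members with the largest difference in share were all lower in DMEM, at 3.45% of the counts together against 8.35%. Without these 10 the class still differed by -6.28 percentage points, out of -11.2.

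Genes higher in SFDM than in SFB mark what the differentiation formulation added to the serum-free base. This class had 678 members, of which 396 (58.4%) were lower and 125 (18.4%) higher in DMEM than in DM, with a median of -0.85. Over all genes 24.5% were lower and 25.0% higher. At least 2-fold differences were reached by 300 of its lower members (44.2% of the class) and 100 of its higher members (14.7%). Over all genes these shares were 7.13% and 7.91%, so differences of this size were more frequent in the class in both directions. The class held 3.81%, 3.58% and 3.47% of the counts in DMEM and 8.75%, 8.26% and 9.77% in DM, so that the lowest DM library had more than the highest DMEM library (exact two-sided permutation p = 0.1, the smallest possible). In GM it held 0.585% ± 0.0284 and in SFGM 0.787% ± 0.0112. The medians of its 4 bins by level went from -0.31 in the lowest through -0.51 and -0.83 to -1.10 in the highest.

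Genes that fell at least 2-fold from SFGM to SFDM went the other way. Of the 1563, 545 (34.9%) were higher and 284 (18.2%) lower in DMEM than in DM, beside 25.0% and 24.5% of all genes. Their median was 0.16. They made up 6.03% ± 0.0381 of the counts in DMEM and 4.75% ± 0.0225 in DM (SD, n = 3, exact two-sided permutation p = 0.1, the smallest possible), and 12.5% ± 0.0460 and 12.2% ± 0.0389 in SFGM and GM at 0 h. Of the 326 genes that were lower in SFDM than in SFB, 121 (37.1%) were higher in DMEM and 78 (23.9%) lower. The share of lower members was thus near the 24.5% of all genes. This class had a median of 0.18, and 1.15% ± 0.0806 of the counts in DMEM against 0.937% ± 0.0534 in DM.

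The class of genes higher in SFGM than in GM was the one where members and counts pointed in different directions. More of its members were higher than lower in DMEM, with a median of 0.49, and yet the class took up 5.99% ± 0.0985 of the counts in DMEM and 6.69% ± 0.138 in DM. The 10 members with the largest difference in share, 9 of them lower in DMEM, held 1.18% of the counts in DMEM and 2.29% in DM. Without them the class was 0.40 percentage points larger in DMEM. When classes were defined by the adjusted p alone, with no 2-fold limit, this class was 0.46 percentage points larger in DMEM. The medians were then nearer to 0 for genes that rose in SFDM, at -0.19, and for genes higher in SFDM than in SFB, at -0.46. For genes lower in SFDM than in SFB the median was 0.23, farther from 0 than the 0.18 with the limit.

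**Figure D5:**
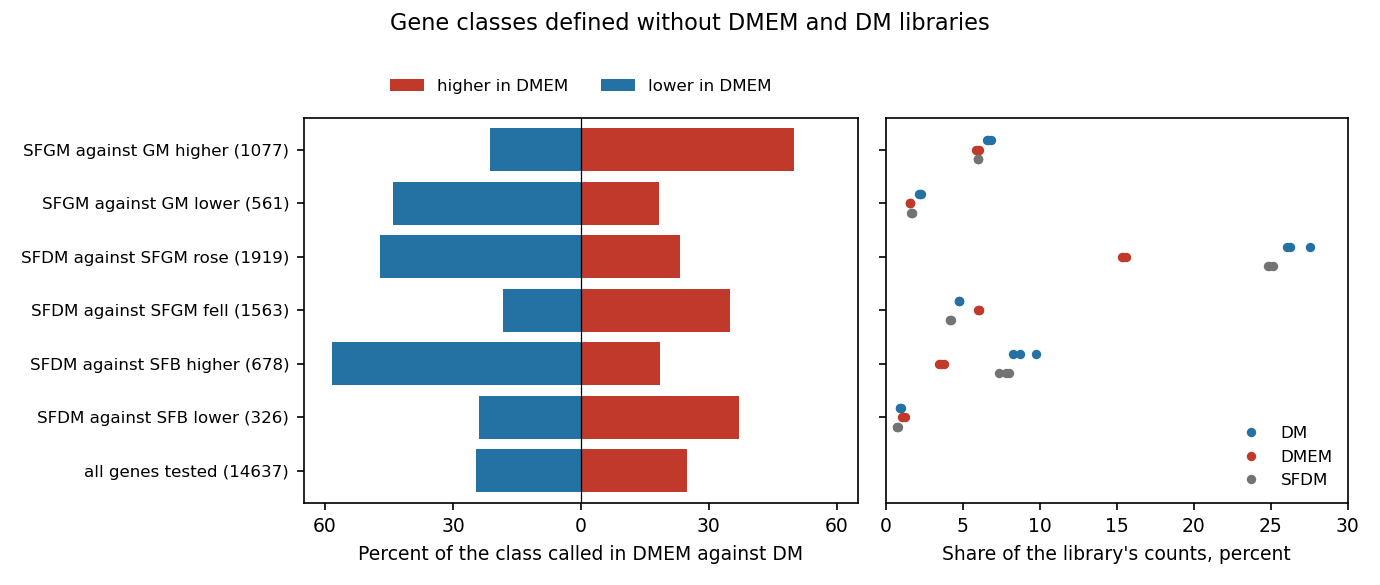
Left, the percentage of each class called higher (red, to the right) or lower (blue, to the left) in DMEM against DM, with the number of genes in parentheses and all genes tested as the last bar. Right, the share of the library's counts that each class holds in the DM, DMEM and SFDM libraries, 1 point per library. The genes that rose from SFGM to SFDM hold 15.3% to 15.6% of the counts in DMEM and 26.0% to 27.6% in DM.

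Classes and strong differences overlapped unevenly. Of the 1043 genes at least 2-fold lower in DMEM, 527 (50.5%) belonged to the genes that rose in SFDM, which is 27.5% of that class, while the class made up 13.1% of the genes tested. Of the 1158 genes at least 2-fold higher in DMEM, 315 (27.2%) belonged to it and 250 (21.6%) to the genes that fell in SFDM, a class that made up 10.7% of the genes tested. The genes higher in SFGM at 0 h held 369 (31.9%) of the 1158, which is 34.3% of that class, and the class made up 7.36% of the genes tested.

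SFDM, the version on the DMEM/F-12 base, shares its starting culture with DMEM and lacks serum too. SFDM against DM and DMEM against DM share the DM libraries, so their values are set side by side only. Against DM, 3179 genes were higher (21.7%) and 3474 lower (23.7%) in SFDM, together 45.5% of the genes tested. RLE scaling turned this balance, with 3391 higher and 3224 lower. With the scaling used here, 1122 (7.67%) and 963 (6.58%) differed by at least 2-fold. The genes that rose from SFGM to SFDM had a median of 0.10 in SFDM against DM, with 680 higher and 517 lower, and of -0.37 in DMEM against DM, with 447 higher and 906 lower. The class was chosen on SFDM libraries, which favours SFDM in the first of these. The genes higher in SFGM than in GM, chosen by a contrast that holds no 72 h library, had medians of 0.30 in SFDM and 0.49 in DMEM. Those lower in SFGM had medians of -0.60 and -0.44.

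Between DMEM and SFDM, 3548 genes were higher in DMEM (24.2%) and 3285 lower (22.4%), together 46.7% of the genes tested. This balance depended on the scaling: with totals alone 4185 were higher and 2754 lower (60.3% higher), and with RLE scaling 3148 were higher and 3722 lower (45.8% higher). Of the 1158 genes at least 2-fold higher in DMEM than in DM, 621 were also higher in DMEM than in SFDM and 152 lower. Of the 1043 genes at least 2-fold lower, 571 were lower than in SFDM and 93 higher. On the line from DM to DMEM, where 0 is the DM mean and 1 the DMEM mean, SFDM had a median place of 0.683 for the higher genes and 0.528 for the lower genes. It lay beyond DM, on the side away from DMEM, for 10.7% and 13.7% of them. These comparisons share the DMEM libraries that chose the genes, so the counts describe them and support nothing.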

How the data were processed

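The authors deposited raw counts of reads per Ensembl gene identifier for 18 libraries, made from poly(A) RNA with a stranded kit. The submitters' processing notes name STAR 2.7, featureCounts and bosTau9. For the annotation release and strand setting nothing is given in the sources used here, so overlapping, antisense and near-identical genes are uncertain. The reference table matched 0 identifiers to a symbol, so the symbol lists and marker lists were not used. The test was edgeR 4.0.16 (R 4.3.3): filterByExpr (minimum count 10, minimum total 15; 99.97% of the counts kept), TMM scaling, a quasi-likelihood fit of medium means over all 18 libraries, two-sided contrasts, and Benjamini-Hochberg adjustment at 0.05. CPM use the TMM-scaled totals, and an SE is the log2 fold change divided by the root of its F. Shares are of raw counts.

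Classes required an adjusted p under 0.05 and 2-fold. The members, classes and the naming rule (adjusted p under 0.05, at least 5 CPM, no overlap of libraries) were chosen with earlier results of these data known. Replicate pairs differed by 1.85 to 41.9 in chi-square per degree of freedom, and all libraries were counted separately. In each of the 6 media, A and B were the closest pair. In DM that pair had 5.53, against 22.8 for A and C and 32.5 for B and C. The same pairs had 10.2, 41.9 and 14.1 in DMEM. Replicate C thus lay farther from A and B than these did from each other, and the cause was not tested. Tested on simulated counts for DMEM against DM with 50 changed genes per fold, the method recovered 8% at 1.25-fold, 60% at 1.5-fold, 80% of the genes changed 2-fold and 100% of those changed 4-fold, with 4.62% of calls false (14508 genes). Far fewer genes were changed there than the 49.5% called in the data. The adjustment and the scaling depend on that fraction, so these rates need not hold for the data. Deviations of libraries with the same letter from their group means correlated at 0.131, 0.184 and 0.426 between DM and GM, above the limit of 0.1 used for pairing, so that the letters pair DM with GM by the data and not by the labels. In the other 5 pairs of groups checked, at least 1 letter did not pass it. Alternatives were other scalings and filters, DESeq2 1.42.0, only the compared groups, a block for the replicate letter, and each library left out in turn.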

Additional observations from a re-analysis of the deposited data

Results flagged for a closer look

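The change over 72 h was itself compared between both protocols, as (DMEM minus SFGM) minus (DM minus GM), in 1 edgeR quasi-likelihood contrast. This difference of responses passed the test for 5874 genes (adjusted p under 0.05), 40.1% of those tested, of which 2976 had the higher change in DMEM and 2898 the lower. At least 2-fold differences were 1033 and 1373.

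Each of the 4 named identifiers passed it. The log2 difference of the responses was 7.59 for ENSBTAG00000020676 (SE 0.806, edgeR adjusted p = 9.28e-07) and 6.42 for ENSBTAG00000053649 (SE 0.339, edgeR adjusted p = 1.69e-10). It was -8.40 for ENSBTAG00000012034 (SE 0.64, edgeR adjusted p = 1.67e-08) and -6.21 for ENSBTAG00000005604 (SE 2.01, edgeR adjusted p = 0.0209). That of ENSBTAG00000005604 rests on 2 counts in each of GM and SFGM. Both SFGM counts lie in replicate B, and without that library the value was -3.68 and was not called (edgeR adjusted p = 0.917). The identifiers were chosen on the DMEM and DM libraries, which also enter this contrast.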

How the results depend on the processing

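Of 901 values recomputed under alternatives, 864 kept their direction and call, or stayed within 1.5 times (counts and percentages) or within the replicate spread (medians and shares). The count for DMEM against DM was 7243 and ranged from 5856 to 7421, except with the replicate block and only the compared groups, where it was 3763. SFDM against DM went from 6653 to 3845 in that fit, while SFGM against GM went from 5718 up to 8547 and DMEM against SFDM from 6833 up to 8718. The letters did not pass the limit for pairing DMEM with DM: deviations from the group means correlated at -0.224, -0.0226 and -0.52 between these groups for A, B and C. For DM against GM, where the letters did correlate, the replicate block was added after seeing the data: the count of 10215 became 10081 over all libraries and 11012 with only these groups. Of the genes at least 2-fold higher in DMEM, 542 and 510 then fell from GM to DM, against 547 without the block, and of those at least 2-fold lower, 798 and 797 rose, against 800. With the replicate block over all libraries the count for DMEM against DM was 7026, and without 1 library 6424 to 7087. DESeq2 called 7421.

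Medians of classes moved with RLE scaling (genes that fell in SFDM 0.11), DESeq2 (0.11), scaling by totals (0.23 for these, -0.36 for genes lower in SFGM, 0.31 for genes lower in SFDM than SFB) and classes by adjusted p alone. The last gave 0.21 and -0.11 for genes higher and lower in SFGM, -0.19 and 0.11 for genes that rose and fell in SFDM, and -0.46 for genes higher in SFDM than SFB. Of the genes lower in SFDM than SFB, 14.3% were then lower in DMEM. Differences in share, DMEM minus DM, in percentage points, then were 0.46 (reversed from -0.71) and -2.06 for genes higher and lower in SFGM, -8.48 and 5.43 for genes that rose and fell in SFDM, and -12.9 and 9.57 for genes higher and lower in SFDM than SFB. Such classes hold more genes, and no other cause was tested. For genes that fell in SFDM the share difference was 0.87 with RLE scaling, 0.87 with DESeq2, 0.95 with the stricter filter and 1.69 with totals alone, and 0.89 to 1.40 without 1 library. For genes lower in SFGM it was -0.63, and -0.28 with totals alone. It was -1.41 to -0.25 without 1 library, with -1.41 without GM A or SFGM C and -0.25 without GM C or SFGM B. For genes higher in SFGM it was -0.88 to -0.59 without 1 library. Depth limits identifiers with few counts: 3 counts over a group are 0.0387 CPM in DMEM and 0.0436 in DM.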
